A study of Mus musculus with 2 samples.

Results

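The proteasome and immunoproteasome genes were taken as every protein-coding mouse gene whose symbol begins with Psm, a letter from a to g and a digit. The rule found 50 genes among the 43346 genes with an Ensembl identifier, and 4 processed pseudogenes with matching symbols were left out. By role the 50 genes comprise 7 subunits of the alpha ring, 4 beta-ring subunits without catalytic activity, and the immune (Psmb8, Psmb9, Psmb10) and constitutive (Psmb5, Psmb6, Psmb7) catalytic beta subunits. They also comprise 6 ATPases and 11 other subunits of the regulatory particle, 6 activators and inhibitors, 7 assembly factors and 2 tissue-restricted core subunits. The remaining gene, Psmc3ip, matches by name only, since its product works in meiotic recombination and is no proteasome subunit.

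The animal was 1 adult male mouse of strain C57BL/6J, 10 weeks old, whose spleen gave the polyadenylated RNA, and the labels name no treatment, mutation or second tissue. The labels give 2 libraries, technical replicate 2 and technical replicate 1 of the same biological replicate. They state that replicate 2 was made later and did not enter the study's original publication. Strain, tissue, extraction kit and library size range were the same in both, so the comparisons below set replicate 2 against replicate 1, and immune against constitutive subunits within each library. With 1 library on each side no p-value was possible, and every interval given here covers counting error only.

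The proteasome is the cell's main machine for degrading ubiquitin-tagged proteins. Its barrel-shaped core is built from outer alpha rings, which gate entry, and inner beta rings, which carry the cutting sites. A regulatory particle of ATPases and non-ATPase subunits caps the core, recognises ubiquitin and unfolds the substrate. Interferon-gamma induces catalytic subunits that replace the constitutive ones in newly built cores. Lymphocytes and other immune cells, which fill the spleen, carry such immunoproteasomes without induction, and the peptides they cut are loaded on MHC class I molecules.

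The libraries stood apart from each other before any gene group was considered. Expected counts on genes totalled 3806381 in replicate 2 and 27528824 in replicate 1, a 7.23-fold difference in depth. Spearman's rho of TPM (a level scaled for transcript length and library size) between the libraries was 0.51 over 12467 tested genes, and 0.39 over the 48 tested members, which share the same libraries, depth and base-composition differences. The highest TPM of any tested gene was 217252 in replicate 2, against 41678 in replicate 1, and TPM sums to the same total in each library. Spleen markers were present: all 6 B cell, 5 T cell, 5 red pulp macrophage and 5 erythroid markers reached 1 TPM in each library. Of 4 dendritic cell markers, 3 did so in replicate 2 and 4 in replicate 1.

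The 6 catalytic subunits cut with the threonine that begins the mature protein, freed when a propeptide is removed during assembly. The coding stretches around that threonine are shown because they show how each immune subunit resembles the constitutive subunit it replaces. Each is 60 bases of the coding strand from GENCODE M21 on GRCm38, with the codon of the catalytic threonine in capitals. The codon lies at chr17:34199302-34199304 in Psmb8, chr17:34185795-34185797 in Psmb9 and chr8:105937703-105937705 in Psmb10. In the constitutive genes it lies at chr14:54617812-54617814 in Psmb5, chr11:70525885-70525887 in Psmb6 and chr2:38643382-38643384 in Psmb7. It is in exon 2 of each gene except Psmb5, where it is in exon 1. Psmb6 and Psmb8 lie on the plus strand and the other 4 genes on the minus strand.
Psmb8: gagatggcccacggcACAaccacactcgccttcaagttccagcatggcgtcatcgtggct
Psmb5: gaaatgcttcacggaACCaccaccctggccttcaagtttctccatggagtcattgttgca
Psmb9: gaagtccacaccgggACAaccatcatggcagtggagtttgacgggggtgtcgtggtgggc
Psmb6: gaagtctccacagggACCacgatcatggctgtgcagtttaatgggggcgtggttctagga
Psmb10: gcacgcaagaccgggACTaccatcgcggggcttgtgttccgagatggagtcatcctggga
Psmb7: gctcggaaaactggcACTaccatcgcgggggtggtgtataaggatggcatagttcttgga

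Within these 60 bases, Psmb8 and Psmb5 shared 45 bases, Psmb9 and Psmb6 shared 45, and Psmb10 and Psmb7 shared 42. Over the translated mature proteins, Psmb8 and Psmb5 were identical at 70.6% of aligned residues, Psmb9 and Psmb6 at 62.3%, and Psmb10 and Psmb7 at 58.1%. The other 12 combinations of these 6 proteins ranged between 27.0% and 33.5%. The immune genes span chr17:34197721-34201454 (Psmb8), chr17:34181987-34187764 (Psmb9) and chr8:105935735-105938444 (Psmb10) on mm10. The constitutive genes span chr14:54614119-54618022 (Psmb5), chr11:70525367-70527858 (Psmb6) and chr2:38588036-38644087 (Psmb7), so Psmb8 and Psmb9 are close neighbours and the other 4 genes lie on chromosomes of their own. By sequence, Psmb8, Psmb9 and Psmb10 therefore each have 1 constitutive counterpart, and ratios were taken within those pairs as well as over the sums.

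The immune catalytic subunits were present at a higher summed level than the constitutive ones in each library, by 2.39-fold in replicate 2 and by 1.16-fold in replicate 1. Summed TPM of Psmb8, Psmb9 and Psmb10 was 736 against 307 for Psmb5, Psmb6 and Psmb7 in replicate 2. The same sums were 267 and 230 TPM in replicate 1. On the log2 scale the immune over constitutive ratio was 1.26 in replicate 2 (95% counting interval 1.17 to 1.35) and 0.22 in replicate 1 (0.16 to 0.28). The immune share of all catalytic TPM was 70.5% (69.2% to 71.8%) in replicate 2 and 53.8% (52.7% to 54.9%) in replicate 1. The log2 ratio was 1.04 larger in replicate 2 (0.93 to 1.15), and its mean over the libraries was 0.74 ± 0.74 (SD, n = 2 technical replicates). The difference between the libraries was thus larger than the mean ratio.

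The order of the libraries rested on the Psmb10 and Psmb7 pair. Psmb10, the immune counterpart of Psmb7, had 392 TPM from 2614 counts in replicate 2 and 11.9 TPM from 245 counts in replicate 1. Among 21474 protein-coding genes ranked by TPM, it was at rank 163 in replicate 2 and at rank 7525 in replicate 1. Without Psmb10 and Psmb7, the immune over constitutive log2 ratio was 0.46 in replicate 2 (0.35 to 0.58) and 1.32 in replicate 1 (1.23 to 1.41). The library with the larger immune excess was then replicate 1, and the difference was -0.86 (-1.003 to -0.71).

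Each pair of counterparts behaved differently. Psmb8, which carries the chymotrypsin-like activity of the immunoproteasome, had 100.01 TPM in replicate 2 and 129 TPM in replicate 1. Its counterpart Psmb5, the constitutive chymotrypsin-like subunit, had 80.8 TPM in replicate 2 and 31.7 TPM in replicate 1. The log2 ratio of Psmb8 over Psmb5 was 0.31 (0.13 to 0.49) in replicate 2 and 2.03 (1.88 to 2.18) in replicate 1, so the immune subunit led in each library but by a smaller margin in replicate 2. Psmb9 had 244 TPM in replicate 2 and 126 TPM in replicate 1. Psmb6, the constitutive caspase-like subunit that Psmb9 replaces, had 169 TPM in replicate 2 and 70.8 TPM in replicate 1. This pair was the most alike between the libraries, with a log2 ratio of Psmb9 over Psmb6 of 0.53 (0.38 to 0.68) in replicate 2 and 0.84 (0.72 to 0.96) in replicate 1. Psmb7, the trypsin-like subunit, had 58.0 TPM in replicate 2 and 127 TPM in replicate 1. Psmb10 over Psmb7 had a log2 ratio of 2.76 (2.60 to 2.92) in replicate 2 and -3.42 (-3.62 to -3.23) in replicate 1, so the leading subunit of this pair was a different one in each library.

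**Figure D1:**
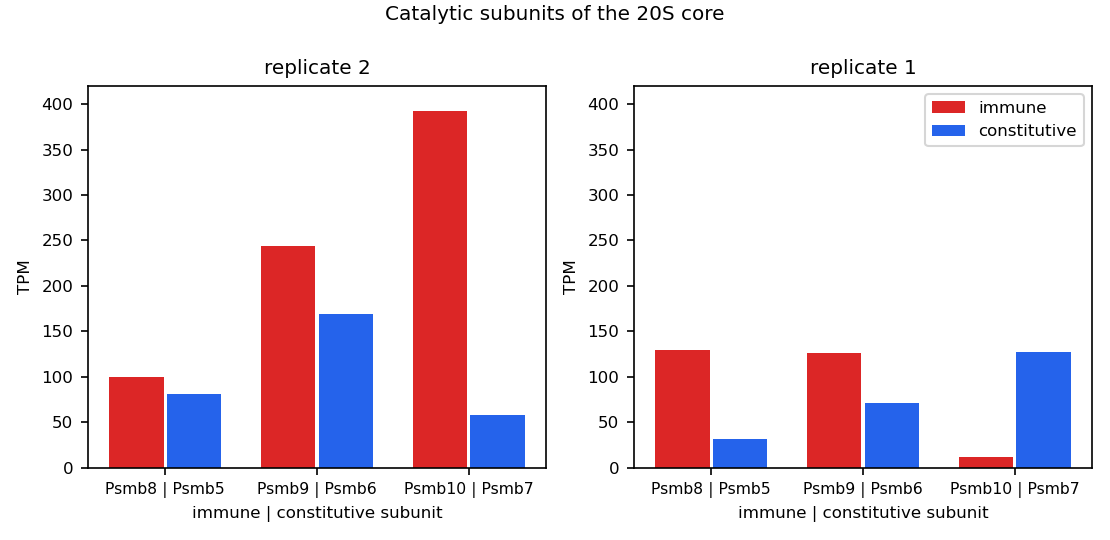
TPM of the immune (red) and constitutive (blue) catalytic subunit of each pair, in replicate 2 on the left and replicate 1 on the right, each bar being 1 library. The immune bar is the taller one in all 3 pairs of replicate 2, while in replicate 1 Psmb10 stands at 11.9 TPM beside 127 TPM for Psmb7.

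Shares within a pair give the same picture. Psmb8 held 55.3% of its pair's TPM in replicate 2 and 80.3% in replicate 1. Psmb9 held 59.1% in replicate 2 and 64.1% in replicate 1. Psmb10 held 87.1% in replicate 2 and 8.52% in replicate 1. Psmb10 made up 53.3% of the immune TPM in replicate 2 and 4.44% in replicate 1, where Psmb8 and Psmb9 made up 48.3% and 47.3%. Among the constitutive subunits the leading gene was Psmb6 in replicate 2, with 54.9% of their TPM, and Psmb7 in replicate 1, with 55.4%.

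The ratios by TPM depend on which transcripts were counted. Psmb10 and Psmb5 have 1 annotated transcript each. The leading transcript of Psmb9 in replicate 2 was Psmb9-205, a retained-intron form with 58.6% of the gene's TPM, and in replicate 1 it was the coding Psmb9-202 with 37.2%. With protein-coding transcripts only, Psmb9 had 101 TPM in replicate 2 and 66.1 TPM in replicate 1. The log2 ratio of Psmb9 over Psmb6 was then -0.61 in replicate 2 and 0.35 in replicate 1, and that over all 3 pairs was 1.02 in replicate 2 and -0.24 in replicate 1. In replicate 1 the sign of the summed ratio thus turned with the choice of transcripts. Psmb9 also overlaps Tap1, which encodes a subunit of the peptide transporter, by 212 bases on the opposite strand, and the sources used here do not say whether counting used strand. Tap1 had 32.6 TPM in replicate 2 and 72.7 TPM in replicate 1. Psmb5 contains the microRNA gene Mir686, which had 131 TPM in replicate 2 and was listed at 0 in replicate 1.

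Levels of immune cell markers differed between the libraries as well, as did those of most genes. By TPM with a pseudocount of 1, 80.8% of all tested genes were more than 1.5-fold lower in replicate 2. Their median log2 ratio was -2.10, so a lower marker sum in replicate 2 had the direction of most tested genes. Whether any marker sum differed beyond that was not tested. Summed TPM of the 6 B cell markers was 1191 in replicate 2 and 3235 in replicate 1, and that of the 5 T cell markers was 85.7 in replicate 2 and 419 in replicate 1. The 4 dendritic cell markers summed to 16.4 TPM in replicate 2 and 167 in replicate 1, and the 5 red pulp macrophage markers to 675 TPM in replicate 2 and 674 in replicate 1. C1qa held most of that sum in replicate 2, with 569 TPM against 90.1 TPM in replicate 1, while the other 4 macrophage markers were lower in replicate 2, among them Vcam1 with 44.9 TPM in replicate 2 and 344 TPM in replicate 1. The 5 erythroid markers summed to 29198 TPM in replicate 2 and 17936 in replicate 1. No marker of these 5 lists was at 0 in either library. The part of these markers in the catalytic ratios was not tested. Both libraries are labelled as technical replicates of the same biological replicate. With 1 library on each side, cell content, RNA per cell, depth and library preparation cannot be told apart as sources of these marker differences.

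Set between libraries after scaling by the trimmed mean of M values (TMM), all 3 immune and all 3 constitutive catalytic subunits were called higher in replicate 2. A call means that the whole 95% interval of the ratio lay beyond 1.5-fold, and 28% of all tested genes were called higher and 32.6% lower by this rule. The log2 ratio of replicate 2 over replicate 1 was 7.53 for Psmb10 (7.34 to 7.73), 2.96 for Psmb9 (2.84 to 3.08) and 2.26 for Psmb8 (2.15 to 2.37). It was 3.88 for Psmb5 (3.67 to 4.09), 3.76 for Psmb6 (3.61 to 3.91) and 1.40 for Psmb7 (1.23 to 1.56). Psmb10 had the largest ratio of all 48 tested members. Scaled by total counts, which moved every ratio down by 1.26, 5 of the 6 kept their call and Psmb7 lost it at 0.14. By TPM, Psmb7 and Psmb8 were lower in replicate 2.

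Over all members, 27 of the 48 tested were called higher in replicate 2, 4 lower and 17 neither. Their median log2 ratio was 1.37, and 37 of them lay above the median of all tested genes, which was -0.27. With total counts as the scale, 18 were called higher and 19 lower, where 14.6% of all tested genes were called higher and 58.5% lower. By that scale the medians were 0.11 for the members and -1.53 for all genes. By TPM with a pseudocount of 1, 10 members were more than 1.5-fold higher and 28 more than 1.5-fold lower, against 8.4% higher and 80.8% lower among all tested genes, and the medians were -1.12 for the members and -2.10 for all genes. The member median thus lay above the median of all genes by counts and by TPM, while its sign depended on the scale. The 2 count scales differ by the same 1.26 for every gene, so the gap between the medians is the same under both by construction. For the same reason the 18 members called higher by total counts were all called higher with TMM. Likewise the 4 called lower with TMM were all called lower by total counts. Of the 18, 14 also had the higher TPM.

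**Figure D2:**
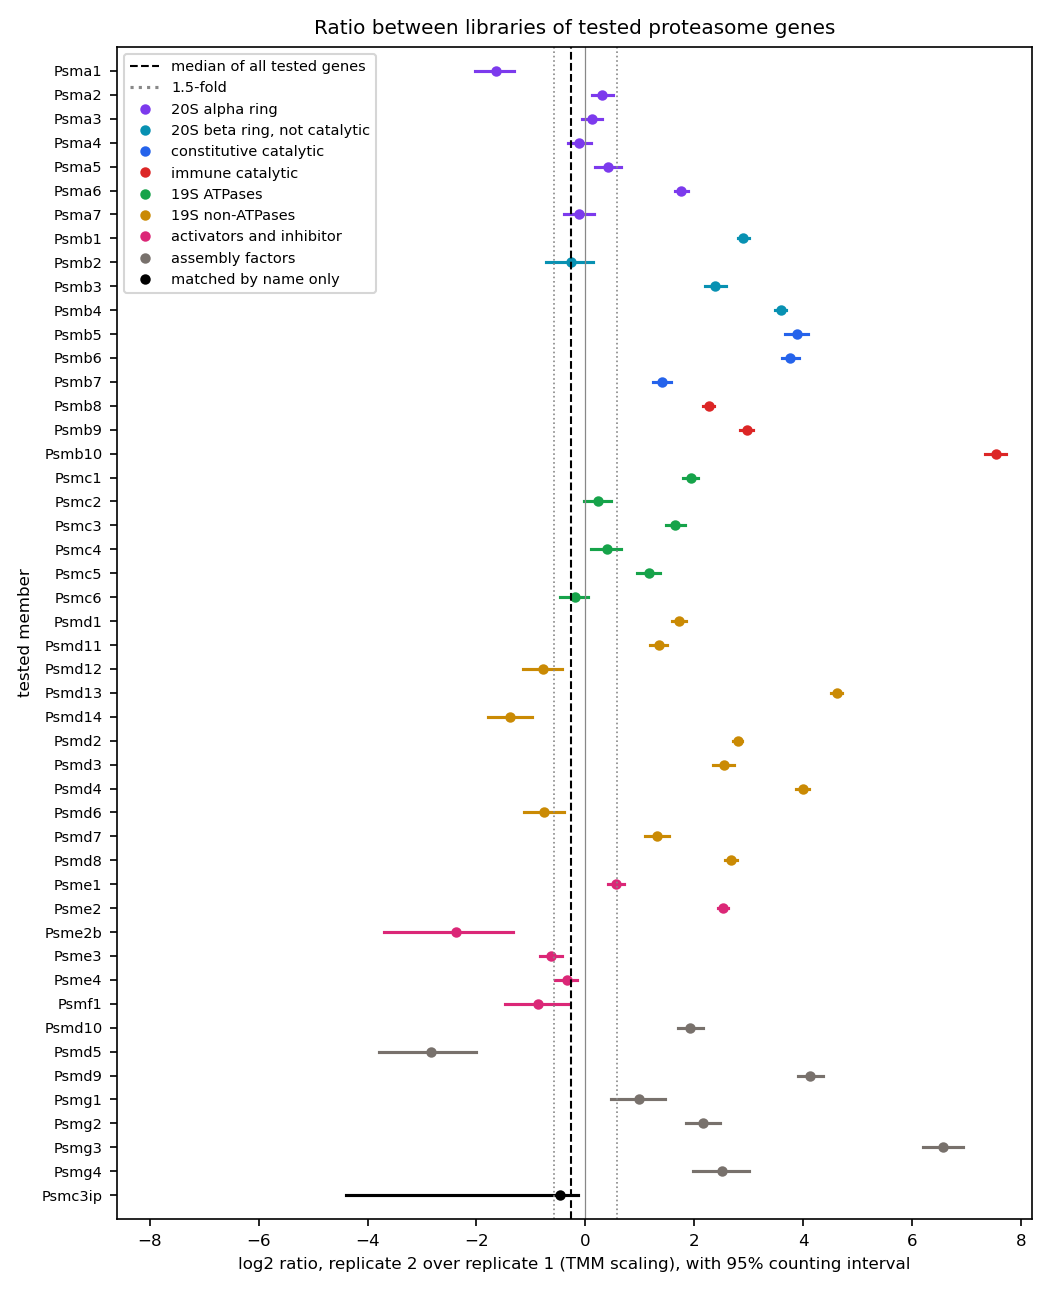
Log2 ratio of replicate 2 over replicate 1 after TMM scaling for the 48 tested members, with 95% counting intervals as bars, colours for the roles, dotted lines at 1.5-fold and a dashed line at the median of all tested genes (-0.27). Psmb10 at 7.53 and Psmg3 at 6.56 lie farthest right and Psmd5 at -2.83 farthest left. Psmc3ip, at 0 counts in replicate 2, is drawn at a floor of 3 counts, its interval has no lower end and is cut where drawn.

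The TPM of all members together was 4328 in replicate 2, against 4912 in replicate 1, a smaller difference than that of most single members. They took 0.594% of the expected counts in replicate 2 and 0.357% in replicate 1. Of the 50 members, 47 reached 1 TPM in replicate 2 and 49 in replicate 1. Among the 1000 genes of highest TPM, out of 21474 protein-coding genes, were 21 members in replicate 2 and 15 in replicate 1. TPM was higher in replicate 2 for 15 members and lower for 35, but most genes had the lower TPM there. With a pseudocount of 1, 28 of the 48 tested members were more than 1.5-fold lower, against 80.8% of all tested genes.

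**Figure D3:**
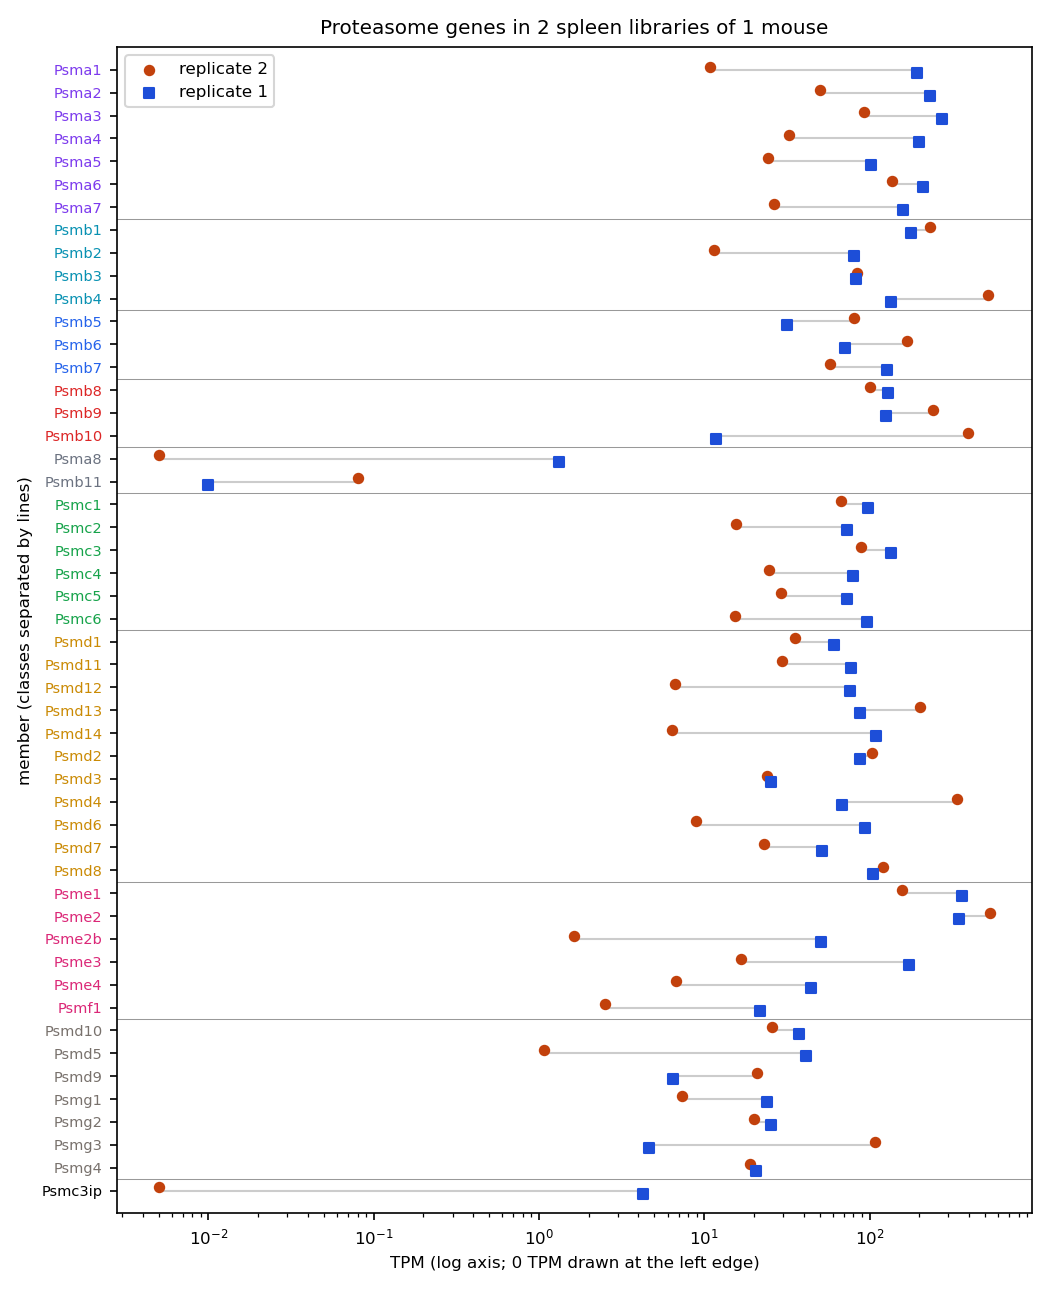
TPM of all 50 members on a log axis, grouped by role, with replicate 2 as circles, replicate 1 as squares and a line joining the values of each gene; 0 TPM is drawn at the left edge. The circles spread more widely than the squares within the alpha ring and the regulatory particle, and Psmb10 and Psmg3 show the longest lines to the right.

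The alpha ring, whose subunits sit side by side in equal numbers in every core, was uneven in replicate 2 and more even in replicate 1. Its 7 genes ranged between 10.9 and 137 TPM in replicate 2, a 12.6-fold range, and between 102 and 275 TPM in replicate 1, a 2.69-fold range. The SD of log2 TPM across the 7 genes was 1.24 in replicate 2 and 0.46 in replicate 1. Over all tested genes above 0 TPM it was also wider in replicate 2, at 2.73 against 1.97. The catalytic subunits went the other way. The constitutive ones spanned a 2.91-fold range in replicate 2 and 4.02-fold in replicate 1, and the immune ones 3.92-fold and 10.9-fold. Psma6 was the 1 gene called higher, with 137 TPM and 659 counts in replicate 2 and 211 TPM and 3378 counts in replicate 1, at a log2 ratio of 1.76 (1.64 to 1.88). By TPM it was lower in replicate 2, and in replicate 2 67.1% of it was assigned to Psma6-202, a nonsense-mediated decay form. Psma1 was the 1 gene called lower, with 10.9 TPM from 68 counts in replicate 2 and 193 TPM from 3704 counts in replicate 1, at -1.65 (-2.02 to -1.30). The remaining 5 were called neither, at log2 ratios between -0.11 and 0.41, and all 5 were called lower by total counts. Among all tested genes, 28% were called higher and 32.6% lower with TMM, and 14.6% and 58.5% by total counts.

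Among the beta subunits without catalytic activity, 3 of 4 were called higher, against 28% of all tested genes. By total counts 3 were called higher and 1 lower, against 14.6% and 58.5% of all tested genes. Psmb4, whose yeast counterpart completes the beta ring, had 518 TPM in replicate 2 and 135 TPM in replicate 1, at a log2 ratio of 3.58 (3.48 to 3.69). Of its TPM in replicate 2, 67.6% was assigned to Psmb4-203, a retained-intron form of 292 bases, and 28.7% to coding transcripts, against 54.9% to coding transcripts in replicate 1. Psmb1 had 234 TPM in replicate 2 and 178 TPM in replicate 1, at 2.90 (2.80 to 2.996). Psmb3 had 84.3 TPM in replicate 2 and 82.4 TPM in replicate 1, at 2.38 (2.19 to 2.57). Psmb2, at 11.5 TPM in replicate 2 and 81.0 TPM in replicate 1, was called neither. These structural neighbours thus differed by up to 44.9-fold in TPM in replicate 2 and by up to 2.20-fold in replicate 1. The wider range rests in part on the short form of Psmb4. With coding transcripts only, Psmb4 had 149 TPM in replicate 2, below Psmb1 at 234 TPM.

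The 6 ATPases form the ring that unfolds substrates. They were within a 5.86-fold TPM range in replicate 2, between 15.2 and 89.3, and within a 1.87-fold range in replicate 1, between 72.6 and 136. Psmc1, Psmc3 and Psmc5 were called higher, at log2 ratios of 1.93, 1.65 and 1.16, and Psmc2, Psmc4 and Psmc6 were called neither, at 0.23, 0.39 and -0.20. Psmc1, the gene with the highest ratio of the ring, had 67.2 TPM in replicate 2 and 97.7 TPM in replicate 1. Psmc3 had 89.3 TPM in replicate 2 and 136 TPM in replicate 1, and Psmc5 had 29.2 TPM in replicate 2 and 72.8 TPM in replicate 1. By total counts no ATPase was called higher and 3 were called lower, and all 6 had the lower TPM in replicate 2. The shares over all tested genes were 28% higher and 32.6% lower with TMM, and 14.6% and 58.5% by total counts. Psmc6 had the lowest GC content of the tested members, 37.0%.

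Of the 11 non-ATPase subunits of the regulatory particle, 8 were called higher and 1 lower, against 28% and 32.6% of all tested genes. By total counts 5 were called higher and 3 lower, against 14.6% and 58.5% of all tested genes. TPM of the 11 subunits lay between 6.42 and 336 in replicate 2 (52.4-fold) and between 25.4 and 109 in replicate 1 (4.31-fold). Psmd13, a lid subunit, had 203 TPM from 2180 counts in replicate 2 and 87.8 TPM from 1546 counts in replicate 1, at a log2 ratio of 4.61 (4.52 to 4.71). It overlaps the pseudogene Gm15542 on the same strand, which was listed at 0 TPM in replicate 2 and had 13.8 TPM in replicate 1. Psmd4, a ubiquitin receptor, had 336 TPM in replicate 2 and 68.1 TPM in replicate 1, at 3.99 (3.87 to 4.10). Its leading transcript was a coding one of 695 bases with 92.6% of the gene's TPM in replicate 2, and a coding one of 1332 bases with 60.7% in replicate 1. Psmd2, a large scaffold subunit, had 103 TPM in replicate 2 and 87.4 TPM in replicate 1, at 2.80 (2.72 to 2.88).

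Psmd14, the deubiquitinase that removes the ubiquitin chain as the substrate enters, was the 1 non-ATPase called lower. It had 6.42 TPM from 53 counts in replicate 2 and 109 TPM from 2386 counts in replicate 1, at a log2 ratio of -1.38 (-1.80 to -0.98). In replicate 1 Psmd14 had the highest TPM of its class and in replicate 2 the lowest. Psmd6 and Psmd12, both lid subunits, were called neither, at -0.75 and -0.77, with 8.91 and 6.64 TPM in replicate 2 and 94.5 and 76.6 TPM in replicate 1. The other 5 called higher, Psmd1, Psmd3, Psmd7, Psmd8 and Psmd11, had ratios between 1.31 and 2.67.

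Of the activators and inhibitor, Psme2 was called higher, Psme2b lower, and 4 neither, where 28% of all tested genes were called higher and 32.6% lower. By total counts 1 was called higher and 4 lower, against 14.6% and 58.5% of all tested genes. Psme1 and Psme2 encode the interferon-inducible cap that opens the core in place of the regulatory particle. Psme2 had 539 TPM from 1272 counts in replicate 2 and 346 TPM from 3842 counts in replicate 1, at a log2 ratio of 2.52 (2.43 to 2.61). Psme1, its partner, had 158 TPM in replicate 2 and 364 TPM in replicate 1, at 0.56 (0.41 to 0.70), and was called neither. In replicate 2 Psme2 thus stood above its partner, while in replicate 1 the partners were close to each other. Coding transcripts held 15.1% of the Psme1 TPM and 13.7% of the Psme2 TPM in replicate 2, against 90.3% and 67.3% in replicate 1. In replicate 2 Psme1 was led by the nonsense-mediated decay form Psme1-209 of 439 bases, and Psme2 by the retained-intron form Psme2-207 of 490 bases.

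Psme3, the nuclear activator, had 16.7 TPM in replicate 2 and 173 TPM in replicate 1, at -0.63 (-0.84 to -0.44). The interferon-inducible cap over the nuclear one, taken as the TPM of Psme1 and Psme2 together over Psme3, had a log2 ratio of 5.39 in replicate 2 and 2.04 in replicate 1. By expected counts this ratio was 2.999 in replicate 2 and 0.60 in replicate 1. With coding transcripts only, Psme1, Psme2 and Psme3 had 23.8, 73.8 and 13.2 TPM in replicate 2. In replicate 1 they had 328.5, 232.6 and 164.8 TPM. The size of the ratio thus depended on which transcripts were counted. Psme4, an activator that binds acetylated histones in testis, had 6.73 TPM in replicate 2 and 44.1 TPM in replicate 1. Psmf1, the inhibitor that binds the core's outer rings, had 2.51 TPM in replicate 2 and 21.8 TPM in replicate 1. Psme2b, a near-identical intronless copy of Psme2, had 6.72 counts in replicate 2 and 629.6 counts in replicate 1, at -2.38 (-3.70 to -1.32), and its reads cannot be separated from those of Psme2 with certainty.

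Assembly factors held the widest range of ratios, with 5 of 7 called higher and 1 lower, against 28% and 32.6% of all tested genes. Psmg3 and Psmg4, partners in 1 chaperone that builds the alpha ring, were both called higher but unequally. Psmg3 had 108 TPM from 397 counts in replicate 2 and 4.65 TPM from 73 counts in replicate 1, at a log2 ratio of 6.56 (6.20 to 6.94). Psmg4 had 18.9 TPM from 44 counts in replicate 2 and 20.6 TPM from 135 counts in replicate 1, at 2.50, with an interval of 1.97 to 3. Psmg2 was called higher, at 2.17 (1.85 to 2.47), and its partner Psmg1 neither, at 0.99 (0.47 to 1.47). Psmg3 was at rank 476 of the protein-coding genes in replicate 2 and at rank 9933 in replicate 1. By total counts 4 of the class were called higher and 1 lower, against 14.6% and 58.5% of all tested genes.

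The chaperones of the ATPase ring were likewise uneven. Psmd9 had 20.9 TPM in replicate 2 and 6.48 TPM in replicate 1, at a log2 ratio of 4.13 (3.90 to 4.37), and Psmd10, known as gankyrin, had 25.6 TPM in replicate 2 and 37.6 TPM in replicate 1, at 1.93 (1.70 to 2.15). Psmd5 had 1.08 TPM from 12 counts in replicate 2 and 41.3 TPM from 1477 counts in replicate 1, at -2.83 (-3.78 to -2.02), the lowest ratio of the tested members. These chaperones therefore lay on opposite sides of the threshold in the same pair of libraries.

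The tissue-restricted core subunits were near or at 0. Psmb11, the beta subunit of thymic cortical epithelium, had 2 counts in replicate 2 and 1 count in replicate 1. Of the other thymic epithelium markers, Foxn1, which defines this tissue, was at 0 in both libraries. Prss16 had 1 count in replicate 2 and 25 counts (1.07 TPM) in replicate 1. Ctsl had 15.9 TPM in replicate 2 and 75.0 TPM in replicate 1. Psma8, the alpha subunit of male germ cells, had 0 counts in replicate 2 and 38 counts (1.32 TPM) in replicate 1. A count of 0 allows up to 3 counts. Of the other germ cell markers, Sycp3 and Tnp1 were at 0 in both libraries, and Ddx4 had 0 counts in replicate 2 and 32 in replicate 1. Psmc3ip had 0 counts in replicate 2 and 72 in replicate 1.

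Base composition moved with the ratios. Spearman's rho between the log2 ratio and the GC content of a gene's longest coding transcript was 0.66 over the 48 members, and 0.52 over 12399 tested genes with a value. The 22 members in the 5 bins of lowest GC content (of 10 bins of equal size) had a median log2 ratio of 0.17, with 8 called higher and 4 lower, where the genes of those bins had a median of -1.09, 11.1% called higher and 48.4% called lower. The 26 members in the 5 bins of highest GC content had a median of 2.51, with 19 called higher and 0 lower, where the genes of those bins had a median of 0.76, 44.9% called higher and 16.6% called lower. All 4 members called lower were in the lower bins. Psmb10, Psmg3, Psmb5, Psmb6, Psmb8 and Psmb9 had GC contents between 55.3% and 56.6%, and Psmb7, the catalytic subunit with the smallest ratio, had 48.7%.

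**Figure D4:**
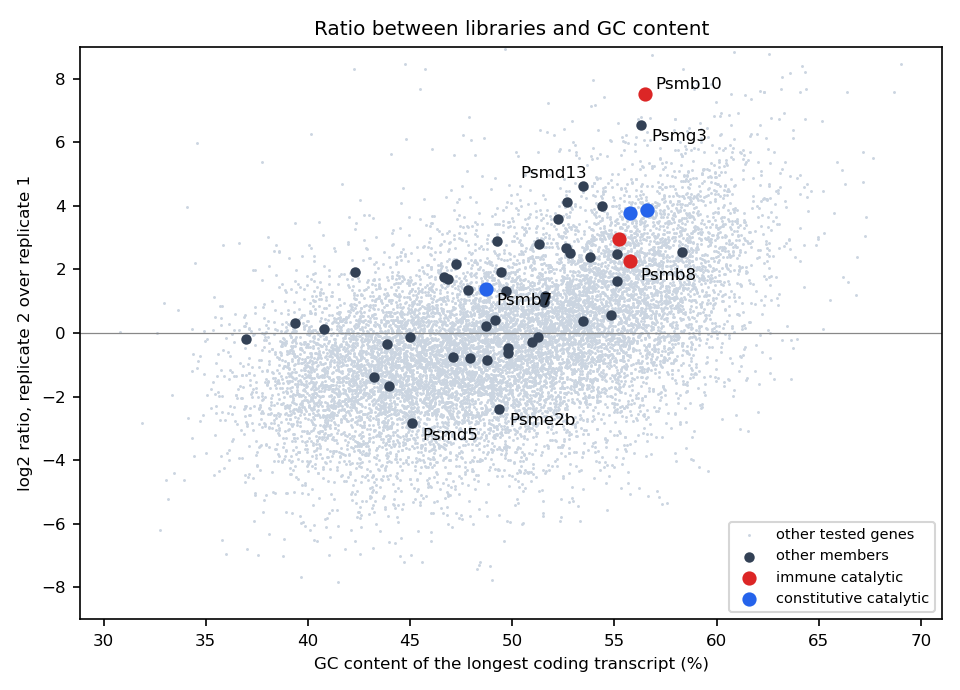
Log2 ratio of replicate 2 over replicate 1 (TMM scaling) against the GC content in percent of each gene's longest coding transcript, with all tested genes in grey, members in dark blue, and immune (red) and constitutive (blue) catalytic subunits marked; 17 of the tested genes lie beyond 9 in either direction on the vertical axis and are not shown. Both grey and dark points lie higher toward the right, and Psmb10 and Psmg3 lie at 7.53 and 6.56.

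With the median ratio of each GC bin subtracted, 32 members were called higher and 2, Psme2b and Psmd5, lower, where 27.9% of all tested genes were called higher and 25.1% lower. Psmb10 was then at 6.16 and Psmg3 at 5.19. The catalytic subunits came closer together, with Psmb9 at 2.26 and Psmb8 at 0.89 beside Psmb5 at 2.50, Psmb6 at 2.39 and Psmb7 at 2.01. Psma1 and Psmd14 were no longer called lower, at -0.32 and -0.05. With length the correlation was weak among members, with a rho of -0.16, against -0.37 over all genes. The part of base composition in these differences was not tested beyond this subtraction.

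The assignment of reads to transcripts also differed between the libraries. Of 38 members with 2 or more annotated transcripts, 26 had the same leading transcript in both libraries and 12 a different one, which was shorter in replicate 2 for 7 and longer for 5. The leading transcript was not a coding one for 9 members in replicate 2 and for 3 in replicate 1. Transcripts of other genes were not counted in this way, so whether these numbers are particular to proteasome genes was not tested. For Psma3, an alpha subunit, 90.7% of the TPM in replicate 2 was assigned to Psma3-207, a decay form of 562 bases. For Psmd11, a lid subunit, 93.1% in replicate 2 was assigned to the retained-intron form Psmd11-204, while 92.8% was on coding transcripts in replicate 1. TPM divides by transcript length, so these assignments enter every TPM given above, whereas the count ratios do not use them.

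The promoters of Psmb8, Psmb5 and Psmb6 are shown because they are the catalytic genes' promoters in which a searched motif matched. The motifs searched on both strands in the 300 bases around each start were GAAANNGAA, letters of interferon regulatory factor sites, TTCNNNGAA, letters of sites of the STAT family, and TGACNNNGC, letters of the antioxidant response element. The sequences are RefSeq's on GRCm38.p6, given on the gene's own strand, with the match in capitals; each of these promoters holds 1 match. The Psmb8 promoter is chr17:34197945-34198244 (plus strand), that of Psmb5 is chr14:54617946-54618245 (minus strand) and that of Psmb6 is chr11:70525107-70525406 (plus strand).
Psmb8: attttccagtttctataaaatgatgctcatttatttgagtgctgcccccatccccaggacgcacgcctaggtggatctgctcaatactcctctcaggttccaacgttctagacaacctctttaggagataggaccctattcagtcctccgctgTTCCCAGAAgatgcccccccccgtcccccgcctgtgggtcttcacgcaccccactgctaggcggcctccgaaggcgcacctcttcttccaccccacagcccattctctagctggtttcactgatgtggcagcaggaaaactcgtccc
Psmb5: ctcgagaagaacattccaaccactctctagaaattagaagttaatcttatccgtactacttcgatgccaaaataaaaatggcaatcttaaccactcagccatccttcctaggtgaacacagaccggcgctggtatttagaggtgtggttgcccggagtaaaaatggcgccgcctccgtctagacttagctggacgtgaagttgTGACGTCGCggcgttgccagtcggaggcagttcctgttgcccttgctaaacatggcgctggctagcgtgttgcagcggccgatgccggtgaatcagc
Psmb6: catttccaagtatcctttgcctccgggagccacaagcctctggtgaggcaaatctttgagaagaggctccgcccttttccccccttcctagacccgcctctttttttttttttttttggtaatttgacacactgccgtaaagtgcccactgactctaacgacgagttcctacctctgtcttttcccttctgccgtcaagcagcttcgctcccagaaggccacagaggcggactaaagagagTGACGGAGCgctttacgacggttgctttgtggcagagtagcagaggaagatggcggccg

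The match in Psmb8 is TTCNNNGAA and begins 97 bases before the start. Those in Psmb5 and Psmb6 are TGACNNNGC, and begin 47 and 9 bases before the start. The promoters of Psmb9 and Psmb10 hold none of the 3 motifs, and that of Psmb7 was not searched. Over 32851 mouse promoters of the same length, 8.56% held the first motif, 8.30% the second and 12.4% the third, and among the 42 members with a promoter 7, 3 and 6 did. A match is a description of letters only.

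Among 19 other genes of the proteasome's supply and control, 18 were tested, 7 called higher and 7 lower, with a median log2 ratio of -0.0016. Of all tested genes, 28% were called higher and 32.6% lower, with a median of -0.27. Pomp, the maturation factor of the core, had 200.3 TPM in replicate 2 and 207 TPM in replicate 1, at 2.51. Adrm1, a ubiquitin receptor of the regulatory particle, had 123 TPM in replicate 2 and 33.1 TPM in replicate 1, at 3.44. Sem1, Nfe2l1, Ubqln2 and Ubqln4 were also called higher. Nfe2l1, the factor that restores proteasome synthesis on inhibition, was at 1.28. Ngly1 and Ddi2, which process that factor, were called lower, at -2.48 and -1.51, as were Ecpas, Zfand5, Usp14 and Nfe2l2, among others. With the GC bin median removed, 9 of the 18 were called higher and 2 lower, against 27.9% and 25.1% of all tested genes. In that setting Ecpas was at -1.38, Ngly1 at -1.15, Ddi2 at -0.90, Zfand5 at -0.69, Nfe2l2 at -0.62 and Usp14 at -0.35. By total counts 3 were called higher and 11 lower, where 14.6% of all tested genes were called higher and 58.5% lower.

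Of 15 genes of interferon-gamma signalling and peptide supply, 7 were called higher and 5 lower, with a median log2 ratio of 0.10. The shares over all tested genes were 28% higher and 32.6% lower. The higher ones were genes of peptide transport, MHC class I, 1 receptor chain and Irf1. B2m, also of MHC class I, was called neither, with 651 TPM in replicate 2 and 4894 TPM in replicate 1, at -0.38. Tap2, a subunit of the peptide transporter and a neighbour of Psmb8 on chromosome 17, had 131 TPM in replicate 2 and 29.7 TPM in replicate 1, at 5.26 (5.14 to 5.38). H2-D1 had 1076 TPM in replicate 2 and 869 TPM in replicate 1, at 3.50 (3.47 to 3.54). Tapbp, Ifngr2, H2-K1, Irf1 and Tap1 were at 2.69, 2.10, 1.61, 1.46 and 1.06. With the GC bin median removed, Tap2 was at 3.88, Ifngr2 at 2.43, H2-D1 at 2.13, and Irf1 and Tapbp at 1.32. H2-K1 was then at 0.24, Tap1 at -0.32 and B2m at 1.25. In that setting 6 of the 15 were called higher and 3 lower, against 27.9% and 25.1% of all tested genes. Among the lower ones were Jak2 at -3.11, Jak1 at -2.53, Erap1 at -1.98 and Nlrc5 at -1.92. By total counts 4 were called higher and 8 lower, where 14.6% of all tested genes were called higher and 58.5% lower.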

How the data were processed

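RNA-seq values of 2 spleen libraries of 1 mouse were taken from 2 deposited tables per library, 1 of genes and 1 of transcripts. Per the text deposited with the files, reads were assigned to the transcriptome of mm10 with GENCODE M4; aligner, quantifier and strand setting are not given in the sources used here, beyond that text. Per the file headers, the authors deposited an expected count per gene and transcript, with shared reads divided among genes, and TPM, which has the same sum in each library. The transcript tables also give, per the file headers, each transcript's percent of its gene as deposited by the authors. The other deposited columns used are lengths in bases and the posterior SD of each count.

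Genes were named from GENCODE M21 (GRCm38), to which 42462 of 43346 Ensembl identifiers matched. Rows without an Ensembl identifier (0.00021% of expected counts in replicate 2, 1.09e-05% in replicate 1) stayed out of library sizes. Expected counts were rounded to whole numbers and scaled by TMM (edgeR 4.0.16, in R 4.3.3), with size factors of DESeq2 1.42.0 as an alternative. A gene was tested if its TPM averaged 1 or more and its summed count was 50 or more. Each ratio has a 95% Clopper-Pearson interval given the summed count, and a call needs that interval to lie wholly past 1.5-fold. Where a library had 0 counts, 3 counts per library served as the floor. With 1 library on each side no residual degrees of freedom remain, so no p-value was computed; reads without molecular identifiers are not independent molecules, and intervals and floors cover counting error only. The interval steps were tested on simulated data. Levels of different genes were compared in TPM, with intervals for sums and pairs from the counts behind them. Python 3.11.15 with pandas 2.3.3, scipy 1.17.1, Biopython 1.88 and matplotlib 3.10.9 did the remaining work, including alignment of translated coding sequences.

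Roles, gene lists and markers were chosen with earlier results of these data known. Any member could be named; values per library were given for the catalytic, tissue-restricted and activator genes and for up to 3 of the highest and 3 of the lowest called members of each class. Other genes given with values, Tap2 and overlapping genes among them, were added after their values were seen. Of other lists, called genes were named, with levels for up to 4; some called genes of these lists are not reported here, though the counts include them. GC content came from the longest coding transcript. Alternatives covered the scaling, the filter on low values, the fold and interval thresholds, posterior mean counts, GC content, transcript type and the way subunits were summed.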

Additional observations from a re-analysis of the deposited data

How the results depend on the processing

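The sign of a member's ratio depended on the scale. Of 48 tested members, 45 kept direction and call with DESeq2 size factors, under which Psmg1 was newly called higher and Psma4 and Psma7 turned to 0.011; 22 did so with total counts, 14 by TPM with a pseudocount of 1, and 34 with the GC bin median removed. Members called higher numbered 10 by TPM, against 27. Members called lower, against 4, numbered 19 by total counts, 28 by TPM, 2 with the GC bin median removed, 8 without a filter on low values (24% of all genes) and 10 at a fold threshold of 1 (44.9%). A 2-fold threshold, a 99% interval and posterior mean counts moved neither number by more than 1.5 times. With total counts the ratio turned to -0.95 for Psma2, -1.14 for Psma3, -0.85 for Psma5, -1.04 for Psmc2, -0.87 for Psmc4, -0.10 for Psmc5, -0.71 for Psme1 and -0.27 for Psmg1. By TPM it turned to -2.18 for Psma2, -1.57 for Psma3, -2.03 for Psma5, -0.62 for Psma6, -1.12 for Psmb7, -0.37 for Psmb8, -0.53 for Psmc1, -2.16 for Psmc2, -0.60 for Psmc3, -1.67 for Psmc4, -1.29 for Psmc5, -0.77 for Psmd1, -0.085 for Psmd3, -1.12 for Psmd7, -0.54 for Psmd10, -1.36 for Psmd11, -1.20 for Psme1, -1.60 for Psmg1, -0.32 for Psmg2 and -0.12 for Psmg4. With the GC bin median removed it turned to 0.90 for Psma4, 0.22 for Psma7, 0.061 for Psmb2, -0.31 for Psmc4, 1.43 for Psmc6, 0.18 for Psmd6, -0.15 for Psme1 and 0.98 for Psme4. The immune over constitutive log2 ratio of replicate 2 was 1.69 by expected counts, 1.02 with coding transcripts only and 0.46 without Psmb10 and Psmb7, against 1.26. That of replicate 1 was 0.58, -0.24 and 1.32 under the same alternatives and -0.19 by geometric means, against 0.22. Psmb9 over Psmb6 in replicate 2 turned to -0.61 with coding transcripts only. The mean of both libraries, 0.74, was between 0.22 and 1.26 with either library left out. The GC subtraction and the removal of the Psmb10 and Psmb7 pair were chosen after seeing the data. Where values turned, the cause was not tested. Depth limits replicate 2 most: Psmd5, Psme2b and Psmf1 rest on under 30 counts there. Groups of 2 libraries gave no test for outlying samples, and no paired analysis was possible because both libraries form 1 group.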
